A study of Mus musculus with 16 samples.

Results

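Expression of 9 genes of apoptotic cell uptake was followed across subcapsular sinus macrophages (SSMs) and medullary sinus macrophages (MSMs) sorted from mouse lymph nodes. They were chosen by name, with earlier results of these data known. The 9 are the receptors Mertk, Axl, Tyro3, Timd4 and Cd300lf, the bridging proteins Gas6, Pros1 and Mfge8, and the engulfment adaptor Elmo1. All 9 were among the 55421 genes of the count table and all 9 passed the filter on low counts, which left 21085 genes. The samples were male C57B/6 mice, and every mouse carried a MOC2 tumor, a transplantable squamous cell carcinoma, grown for 2 weeks after 500000 cells were injected intradermally into the flank. The 4 groups were SSMs from non-draining lymph nodes (ndLN), SSMs from tumor-draining lymph nodes (tdLN), MSMs from ndLN and MSMs from tdLN, with 2 libraries in each. One pool came from 2 mice and held 2 tdLN or 6 ndLN (the contralateral inguinal, axillary and brachial nodes), so ndLN were not nodes of tumor-free mice, and node of origin and node position cannot be told apart. Both subsets were sorted as live CD45+ CD3- B220- Ly6G- CD11b+ CD169+ cells. SSMs were the CD11c- cells of low side scatter and MSMs the CD11c+ cells of high side scatter. Library totals ran from 42972328 to 48130352 counts.

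Dying cells expose phosphatidylserine, and phagocytes recognise it in more than one way. The TAM receptor tyrosine kinases Tyro3, Axl and Mertk do so through soluble bridges, Gas6 and protein S (encoded by Pros1), which hold phosphatidylserine at one end and the receptor at the other. Timd4 (TIM-4) and Cd300lf bind the lipid directly, Mfge8 links it to integrins, and Elmo1 acts inside the cell with Dock1 to activate Rac and move the membrane around the prey. Resident tissue macrophages are known for uptake of this kind, which also restrains inflammatory signalling.

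The label of each subset was compared with its defining transcripts, given as library-scaled counts (CPM, with trimmed mean of M values, TMM, scaling). Itgax, which encodes the gating marker CD11c, was at 63.6 to 149 CPM in the SSM libraries and 316 to 418 CPM in the MSM libraries, as the gate would set it. Siglec1, which encodes CD169 and defines both subsets, was at 8.47 to 70.0 CPM in SSM libraries and only 0.795 to 5.96 CPM in MSM libraries. The MSM libraries held the dendritic cell genes Xcr1 (630 to 752 CPM against 14.2 to 33.6 in SSMs), Flt3 (672 to 852 against 27.9 to 59.3) and Clec9a (132 to 203 against 0.807 to 2.08), so the transcripts went against a purely macrophage label. The SSM libraries held the higher summed levels of T cell (11 genes), innate-like lymphoid (8 genes) and NK and cytotoxic (8 genes) markers, at 1018 to 2535, 547 to 1855 and 2098 to 3419 CPM, against 492 to 824, 32.2 to 61.6 and 214 to 324 CPM in MSMs. Most of the MSM sums was Cd8a in the T cell list (357 to 605 CPM, against 10.0 to 25.7 CPM in SSMs) and Klrk1 in the NK list (183 to 264 CPM). Mast cell and basophil markers (9 genes) summed to 252 to 2750 CPM in SSMs and to 270 to 619 CPM in MSMs. Nearly all of the MSM sum was Kit (269 to 614 CPM, against 61.6 to 481 CPM in SSMs). Cpa3 was at 36.1 to 562 CPM in SSMs and 0.0256 to 0.330 CPM in MSMs, and Tpsb2 at 38.4 to 723 CPM and 0.121 to 1.94 CPM. SSM and MSM therefore name the sorted gates here. The part of these other cells in the results was not tested, and in sorted bulk samples a change in the share of a cell type and a change in RNA per cell cannot be told apart.

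The 9 genes covered a wide range of levels. Per length, as CPM divided by exon length in kilobases (RPKM), SSMs of ndLN were led by Mfge8 at 29.6 ± 8.87 (SD, n = 2, as for all values given with ±), then Axl at 17.5 ± 6.01 and Elmo1 at 17.0 ± 0.723, the last pair with overlapping libraries. In SSMs of tdLN Axl led at 50.9 ± 8.25 RPKM, followed by Cd300lf at 30.2 ± 0.36 RPKM, and the 2 libraries of each did not overlap with those of the next gene. MSMs of ndLN were led by Timd4 at 35.2 ± 1.38 RPKM, above Mfge8 at 21.4 ± 0.126 and Elmo1 at 19.6 ± 0.284. In MSMs of tdLN the first place was held by Mfge8 at 31.0 ± 3.48 RPKM, with Elmo1 (17.5 ± 4.36) and Timd4 (11.8 ± 3.89) overlapping behind it. So each of the 4 groups had its own leading order, and the least abundant genes were everywhere among Mertk, Gas6 and Tyro3.

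**Figure D1:**
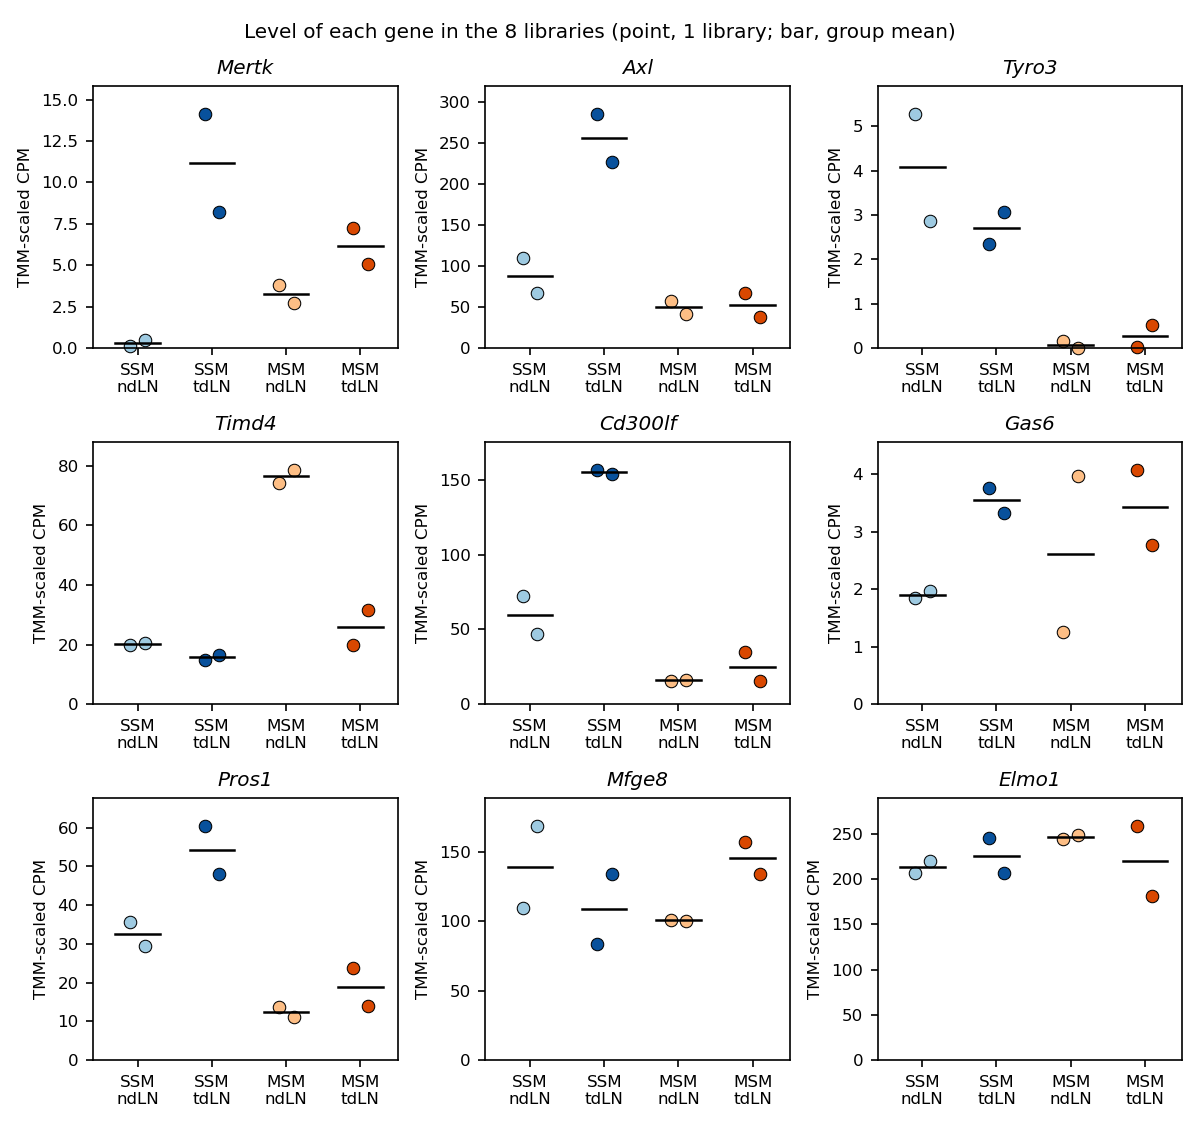
Level of each of the 9 genes in TMM-scaled CPM (vertical axes, linear and starting at 0, a separate scale for each gene) in SSMs and MSMs of ndLN and tdLN. Points are libraries, 2 a group, and bars are group means. Mertk was at 0.129 and 0.465 CPM in SSMs of ndLN and at 14.1 and 8.21 CPM in SSMs of tdLN, while Elmo1 lay between 181 and 259 CPM in all 8 libraries.

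Mertk, the TAM kinase most used to define tissue macrophages, was the gene that differed most between SSMs of the 2 node types. It lies on chromosome 2 (128698956 to 128802894, plus strand, GRCm38). SSMs of ndLN had 7 and 23 Mertk counts, SSMs of tdLN 630 and 358, MSMs of ndLN 149 and 121, and MSMs of tdLN 300 and 230. No library of any group overlapped with those of another group, and SSMs held both the lowest and the highest values. In CPM these counts were 0.297 ± 0.238 in SSMs of ndLN, 11.2 ± 4.18 in SSMs of tdLN, 3.26 ± 0.794 in MSMs of ndLN and 6.17 ± 1.56 in MSMs of tdLN. Mertk rose in SSMs from ndLN to tdLN (log2 fold change 5.25, SE 0.499, adjusted p = 0.00193) by the test used throughout, an edgeR quasi-likelihood fit over all 21085 genes in which a gene was called at an adjusted p under 0.01 and a mean normalized count over 100 per sequencing lane. It was lower in SSMs than in MSMs of ndLN (log2 fold change -3.49, SE 0.622, edgeR adjusted p = 0.00515), a call lost with any library left out but replicate 2 of SSMs of ndLN (adjusted p up to 0.0494). In tdLN the sign was the opposite but the difference was not called (0.84, SE 0.301, edgeR adjusted p = 0.108). Leaving out any 1 of the 4 SSM libraries took the rise out of the calls, with a log2 fold change of 4.22 to 6.68 and an adjusted p of up to 0.0426. The counts of 7 and 23 set the size of the fold, which is therefore loosely determined.

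Axl, the TAM kinase that binds Gas6 most tightly, was the most abundant of the TAM receptors by far. It lies on chromosome 7 (25757273 to 25788705, minus strand). Its levels were 109 and 66.7 CPM in SSMs of ndLN, 285 and 227 CPM in SSMs of tdLN, 57.5 and 41.5 CPM in MSMs of ndLN, and 67.3 and 38.3 CPM in MSMs of tdLN. SSMs of tdLN stood above the other 6 libraries, and the MSM groups overlapped. Axl rose in SSMs from ndLN to tdLN (log2 fold change 1.58, SE 0.162, edgeR adjusted p = 0.00240) and was higher in SSMs than in MSMs of tdLN (2.32, SE 0.168, edgeR adjusted p = 1.56e-04), though relative to Csf1r counts SSMs of tdLN were the lower ones (151 and 161 against 166 and 198 per 1000). In ndLN the difference between the subsets narrowly missed the call (0.81, SE 0.165, edgeR adjusted p = 0.0102). The rise in SSMs was no longer called without the pool number as a block (1.54, adjusted p = 0.0173) or without any 1 of the 4 SSM libraries (adjusted p up to 0.0479). Of the summed TAM receptor level per length, Axl made up 85.9% to 96.1% in the 8 libraries. Mertk made up 0.131% and 0.776% in SSMs of ndLN, 5.40% and 3.99% in SSMs of tdLN, and 7.02% to 13.2% in the MSM libraries.

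Tyro3, the third TAM kinase, is best known from the nervous system, and was scarce here. It lies on chromosome 2 (119797733 to 119818104, plus strand). Its counts were 287 and 142 in SSMs of ndLN, 105 and 134 in SSMs of tdLN, 6 and 0 in MSMs of ndLN, and 1 and 24 in MSMs of tdLN. Every SSM library was above every MSM library. The mean count of Tyro3 was under the cut-off of 100, so it could not be called. Over both nodes its fitted log2 fold change of SSMs against MSMs was 4.49 (SE 0.691, edgeR adjusted p = 9.61e-04), a size that depends on the prior count because the MSM counts were near 0. Between the node types of SSMs its log2 fold change was -0.58 (SE 0.488, edgeR adjusted p = 0.526), and the CPM values did overlap.

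Timd4 encodes a phosphatidylserine receptor that tethers dying cells and marks long-lived resident macrophages. It lies on chromosome 11 (46810800 to 46844332, plus strand), and its pattern was the reverse of that of Axl. MSMs of ndLN had 74.4 and 78.6 CPM, MSMs of tdLN 19.8 and 31.7 CPM, SSMs of ndLN 19.9 and 20.6 CPM, and SSMs of tdLN 14.7 and 16.6 CPM. MSMs of ndLN stood apart from the other 6 libraries, in which it lay between 14.7 and 31.7 CPM. Timd4 was lower in SSMs than in MSMs of ndLN (log2 fold change -1.91, SE 0.204, edgeR adjusted p = 5.29e-04), a call lost without replicate 1 of MSMs of ndLN (adjusted p = 0.0102). In tdLN the difference of -0.70 (SE 0.216) was not called (edgeR adjusted p = 0.0679). From ndLN to tdLN the MSM log2 fold change was -1.59 (SE 0.203), with an edgeR adjusted p of 0.0304 that missed the threshold of 0.01. Cd207, a gene of Langerhans cells and some dendritic cells, was at 126 and 68.9 CPM in MSMs of ndLN and 21.9 and 17.4 CPM in MSMs of tdLN. It is 1 of 9 listed conventional dendritic cell markers, which did not move together. Between these groups 4 of the 9 had a positive log2 fold change, with a median of -0.06. Batf3 went from 60.6 and 59.9 CPM to 87.2 and 105 CPM, and Ccr7 from 1662 and 1644 CPM to 2100 and 2064 CPM. The part of such cells in the Timd4 values was not tested.

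Cd300lf (CLM-1), a receptor of the CD300 family that binds phosphatidylserine and carries inhibitory motifs, was higher in SSMs of both nodes in CPM. Relative to Csf1r counts all 8 libraries lay between 74.4 and 110 per 1000. Cd300lf lies on chromosome 11 (115116214 to 115133992, minus strand), inside the span of Rab37 on the other strand with no shared exon. Its levels were 72.6 and 47.0 CPM in SSMs of ndLN, 157 and 154 CPM in SSMs of tdLN, 15.5 and 16.3 CPM in MSMs of ndLN, and 35.1 and 15.2 CPM in MSMs of tdLN. All 4 SSM libraries lay above all 4 MSM libraries. Cd300lf was higher in SSMs than in MSMs of ndLN (log2 fold change 1.86, SE 0.308, edgeR adjusted p = 0.00402) and of tdLN (2.71, SE 0.303, edgeR adjusted p = 9.13e-04). In ndLN the call was lost on leaving out any 1 of the 4 libraries compared (adjusted p up to 0.0541), and in tdLN on leaving out SSM replicate 2 (0.0127). From ndLN to tdLN of SSMs the log2 fold change was 1.42 (SE 0.282), and its edgeR adjusted p of 0.0219 was over 0.01.

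The sequences just before the start sites of these 4 receptors with a called difference are shown because 2 of them (Mertk and Axl) changed with the node and 2 (Timd4 and Cd300lf) stood on opposite sides of the subset comparison. Each is the 250 bases before the RefSeq start in GRCm38.p6, written 5′ to 3′ on the strand of the gene, for Mertk chr2:128698665-128698914 (plus), Axl chr7:25788734-25788983 (minus), Timd4 chr11:46810549-46810798 (plus) and Cd300lf chr11:115133993-115134242 (minus). Capitals mark matches, on either strand, to 3 strings of letters: GAGGAA (the core bound by PU.1, the macrophage lineage factor), AGGTCA (a core bound by nuclear receptors) and GGGCGG (a GC box bound by Sp1).
Mertk: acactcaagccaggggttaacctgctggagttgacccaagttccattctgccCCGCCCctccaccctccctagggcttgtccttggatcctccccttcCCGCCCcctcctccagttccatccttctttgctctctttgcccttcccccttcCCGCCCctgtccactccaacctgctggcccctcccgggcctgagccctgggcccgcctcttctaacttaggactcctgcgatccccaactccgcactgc
Axl: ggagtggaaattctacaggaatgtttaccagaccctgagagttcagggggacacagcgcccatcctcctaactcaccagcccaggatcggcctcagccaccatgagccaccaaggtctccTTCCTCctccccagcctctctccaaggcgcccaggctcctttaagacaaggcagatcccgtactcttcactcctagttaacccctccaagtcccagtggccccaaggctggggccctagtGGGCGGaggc
Timd4: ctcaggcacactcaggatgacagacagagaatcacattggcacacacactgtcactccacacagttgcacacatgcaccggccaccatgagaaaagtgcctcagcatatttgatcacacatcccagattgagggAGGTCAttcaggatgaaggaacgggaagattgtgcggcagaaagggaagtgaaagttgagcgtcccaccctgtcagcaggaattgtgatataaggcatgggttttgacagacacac
Cd300lf: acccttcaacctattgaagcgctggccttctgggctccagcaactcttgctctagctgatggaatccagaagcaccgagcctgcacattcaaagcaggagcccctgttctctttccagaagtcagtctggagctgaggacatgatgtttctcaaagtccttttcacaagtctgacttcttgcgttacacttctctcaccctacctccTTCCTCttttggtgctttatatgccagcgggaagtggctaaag
The Mertk window was 63.6% G and C and held 3 GC boxes. The Axl window (60.0% G and C) held 1 PU.1 core and 1 GC box, that of Cd300lf (50.0%) 1 PU.1 core, and that of Timd4 (50.0%) 1 nuclear receptor core. No matches overlapped in these 4 windows. Of 32851 RefSeq promoters of the same length, 23.3% held the PU.1 core, 14.0% the nuclear receptor core and 32.7% the GC box. All 3 strings are thus common, and a match is a description of the letters and not a bound site.

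Among the bridges, Pros1 (protein S, a vitamin K-dependent ligand of Tyro3 and Mertk, chromosome 16, 62854307 to 62929346, plus strand) followed the SSMs. Its levels were 35.6 and 29.5 CPM in SSMs of ndLN, 60.4 and 48.1 CPM in SSMs of tdLN, 13.6 and 11.2 CPM in MSMs of ndLN, and 23.7 and 14.1 CPM in MSMs of tdLN. The SSM and MSM libraries did not overlap. Relative to Csf1r counts Pros1 was not higher in SSMs, as given further on. By library-scaled counts it was higher in SSMs in ndLN (log2 fold change 1.40, SE 0.200, edgeR adjusted p = 0.00207) and in tdLN (1.55, SE 0.191, edgeR adjusted p = 0.00140). These calls were lost in ndLN on leaving out SSM replicate 2 or either MSM replicate (adjusted p up to 0.0271), and in tdLN on leaving out either SSM replicate or MSM replicate 2 (up to 0.0241). From ndLN to tdLN of SSMs its log2 fold change was 0.73 (SE 0.182, edgeR adjusted p = 0.0468), not called.

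Gas6, the other TAM ligand and the only one that activates Axl (chromosome 8, 13465374 to 13494490, minus strand), was hardly present. Its counts were 100 and 97 in SSMs of ndLN, 168 and 145 in SSMs of tdLN, 49 and 178 in MSMs of ndLN, and 168 and 126 in MSMs of tdLN. The MSM libraries of ndLN held both the lowest and the highest count, and its mean count was under the cut-off. Its log2 fold change between tdLN and ndLN of SSMs was 0.90 (SE 0.529, edgeR adjusted p = 0.361). Per length, Pros1 stood at 7.96 ± 1.07 RPKM and Gas6 at 0.746 ± 0.0337 RPKM in SSMs of ndLN, and at 13.3 ± 2.12 and 1.39 ± 0.123 RPKM in SSMs of tdLN. Protein S was thus the more abundant TAM ligand transcript in SSMs of both node types, and in the MSM groups the order was the same (3.03 ± 0.411 against 1.02 ± 0.752 RPKM in ndLN and 4.61 ± 1.66 against 1.34 ± 0.36 RPKM in tdLN).

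Mfge8 and Elmo1 were not called in any contrast of the edgeR fit. Mfge8, the secreted bridge to the integrins alpha v beta 3 and alpha v beta 5 (chromosome 7, 79133768 to 79149060, minus strand), was at 110 and 168 CPM in SSMs of ndLN, 83.6 and 134 CPM in SSMs of tdLN, 101 and 100.0 CPM in MSMs of ndLN, and 157 and 134 CPM in MSMs of tdLN. The SSM groups overlapped, and the MSM libraries of ndLN lay below those of tdLN. Its log2 fold change from ndLN to tdLN was -0.36 (SE 0.239, edgeR adjusted p = 0.422) in SSMs and 0.54 (SE 0.24, edgeR adjusted p = 0.434) in MSMs. Elmo1 (chromosome 13, 20090596 to 20608353, plus strand) lay between 181 and 259 CPM in all 8 libraries. Its log2 fold change from ndLN to tdLN was 0.07 in SSMs (SE 0.169, edgeR adjusted p = 0.856), and that of SSMs against MSMs was -0.20 in ndLN (SE 0.169, edgeR adjusted p = 0.432) and 0.05 in tdLN (SE 0.169, edgeR adjusted p = 0.913).

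**Figure D2:**
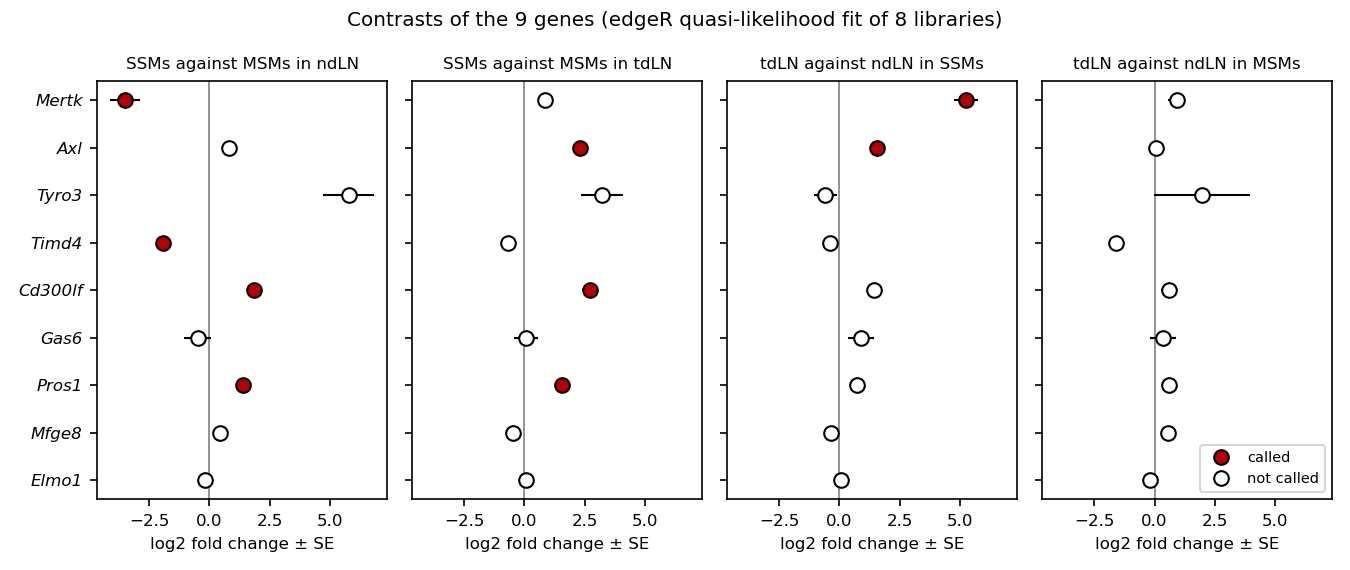
Log2 fold change of each of the 9 genes (points) with its standard error (horizontal bars, hidden where shorter than the point) in 4 contrasts of the fit over 8 libraries. Filled points are called and open points are not. Mertk was called lower in SSMs of ndLN (-3.49) and higher in SSMs of tdLN than of ndLN (5.25), and the panel for MSMs holds no filled point.

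Counted over the 9 genes, 4 differed between SSMs and MSMs of ndLN, 2 higher (Cd300lf and Pros1) and 2 lower (Mertk and Timd4), where 12.1% of all tested genes were called (6.01% higher and 6.06% lower). In tdLN 3 were higher in SSMs (Axl, Cd300lf and Pros1) and none lower, against 8.69% of all genes (5.16% higher and 3.53% lower). From ndLN to tdLN of SSMs 2 of the 9 rose (Mertk and Axl), against 3.03% of all genes (1.98% higher and 1.05% lower). In MSMs none of the 9 was called by edgeR, against 0.0237% of all genes, or 5 in number. There 3 of the 9 had an unadjusted p under 0.05, as did 2515 of all genes, and DESeq2 called 1 of the 9 (Timd4) and 496 of all genes. With both nodes together 4 differed between the subsets (Axl, Cd300lf and Pros1 higher, Timd4 lower), against 16.0% of all genes (8.04% higher and 8.01% lower), and with both subsets together 2 rose in tdLN (Mertk and Axl), against 1.97% (1.23% higher and 0.74% lower), a count of 0 of the 9 with any 1 library left out. Only 7 of the 9 could be called, since Gas6 and Tyro3 were under the count cut-off. Of the 21085 tested genes only 9996 were over it, so the shares of all genes are lower than among genes that could be called. The 9 were chosen with earlier results of these data known, so these counts do not test the set. The median log2 fold change of the 9 was 0.44 for the subsets in ndLN, 0.84 in tdLN, 0.73 for the nodes in SSMs and 0.54 in MSMs, beside 0.09, 0.02, -0.04 and 0.0093 over all tested genes.

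Whether the node effect differed between the subsets was tested with an interaction term, the tdLN to ndLN difference in SSMs minus that in MSMs. For Mertk it was 4.33 on the log2 scale (SE 0.691, edgeR adjusted p = 0.0368) and for Axl 1.51 (SE 0.232, edgeR adjusted p = 0.0355). None of the 9 passed at 0.01 in edgeR, where 0.0379% of all genes did (8 genes). At an unadjusted p under 0.05 were 4 of the 9 and 2598 of all genes, and DESeq2 called 3 of the 9 and 677 of all genes. At 0.05 both Mertk and Axl passed, as did 1.02% of all genes. Timd4 stood at 1.21 (SE 0.295, edgeR adjusted p = 0.131) and Mfge8 at -0.90 (SE 0.338, edgeR adjusted p = 0.322), neither of them past either threshold. Leaving out 1 library at a time gave adjusted p of 0.0727 to 0.290 for Mertk and 0.0632 to 0.228 for Axl, so it passed neither threshold with any 1 library left out.

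Markers of other cell types and of macrophages were set beside these results. Of 9 tested sinus macrophage markers 5 rose from ndLN to tdLN of SSMs (Mrc1, Siglec1, Cd68, Csf1r and Lyz2), where 1.98% of all genes were called higher, while Marco had a log2 fold change of -0.60 that was not called. The summed level over the 10 listed genes went from 9114 and 5928 CPM to 22394 and 15360 CPM, nearly all of it from Lyz2 (7940 and 5044 CPM to 19309 and 12932 CPM), with Vsig4 at 0 in all libraries. Siglec1 went from 15.1 and 8.47 CPM to 70.0 and 59.2 CPM. Csf1r, the receptor for the macrophage growth factor, rose from 694 and 559 CPM to 1887 and 1408 CPM (log2 fold change 1.39, edgeR adjusted p = 0.00984). The summed T cell markers went from 2308 and 2535 CPM to 1018 and 1170 CPM (3 of 11 fell), the innate-like lymphoid markers from 1503 and 1855 CPM to 547 and 579 CPM (5 of 8 fell), and the mast cell and basophil markers from 2750 and 1789 CPM to 252 and 581 CPM (2 of 9 fell and 1 rose). In this contrast 1.05% of all genes were called lower. The NK and cytotoxic markers were at 3419 and 2749 CPM and then at 2098 and 3038 CPM, and the 7 B cell markers at 27.3 and 34.2 CPM and then at 36.2 and 39.0 CPM, with 0 called by edgeR or DESeq2 in either list and 1 of 8 and 2 of 7 at an unadjusted p under 0.05. The counts of the 9 genes were therefore also divided by the Csf1r counts of the same library, a choice made after the data were seen. Csf1r is not limited to macrophages, and this ratio has no test.

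Per 1000 Csf1r counts, Mertk was at 0.186 and 0.832 in SSMs of ndLN and at 7.48 and 5.83 in SSMs of tdLN. Its ratio of tdLN to ndLN means was 13.1 on this scale and 37.6 in CPM, so the direction was the same on both. Axl was at 158 and 119 per 1000 Csf1r counts in SSMs of ndLN and at 151 and 161 in SSMs of tdLN, and its groups overlapped, with a ratio of 1.13 in place of 2.91 in CPM. The rise of Axl in SSMs was thus seen in CPM and not against Csf1r, the only denominator used. Other macrophage markers changed by other amounts between these groups, and ratios to them were not computed. Adgre1 went from 167 and 109 CPM in SSMs of ndLN to 294 and 233 CPM in SSMs of tdLN. Mrc1 went from 4.19 and 5.05 CPM to 108 and 125 CPM. Cd300lf stayed between 74.4 and 110 per 1000 Csf1r counts in all 8 libraries, a range that took in both subsets and both nodes, and its SSM ratio of tdLN to ndLN was 1.02 in place of 2.60. The order of the subsets also turned for Mertk, Axl, Pros1 and Mfge8, whose libraries did not overlap on the CPM scale in the node concerned. Per 1000 Csf1r counts Mertk was at 17.9 and 26.1 in MSMs of tdLN, above SSMs of tdLN, where in CPM it was below them. Mfge8 was at 158 and 301 in SSMs and 483 and 494 in MSMs of ndLN, where in CPM SSMs were the higher ones. Per 1000 Csf1r counts Pros1 was at 51.4 and 52.7 in SSMs and 65.0 and 55.3 in MSMs of ndLN, and at 32.0 and 34.2 in SSMs and 58.4 and 72.5 in MSMs of tdLN, so SSMs were the lower ones. Axl was at 276 and 205 in MSMs of ndLN and at 166 and 198 in MSMs of tdLN, above the SSMs of the same node. The means of Gas6 and Elmo1 in tdLN, whose subsets overlapped in CPM, turned too. The ratio of tdLN to ndLN means in SSMs was 0.636 for Pros1 (1.67 in CPM) and 0.707 for Gas6 (1.87 in CPM). How far the cell makeup of the sorts accounts for the CPM values was not tested.

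**Figure D3:**
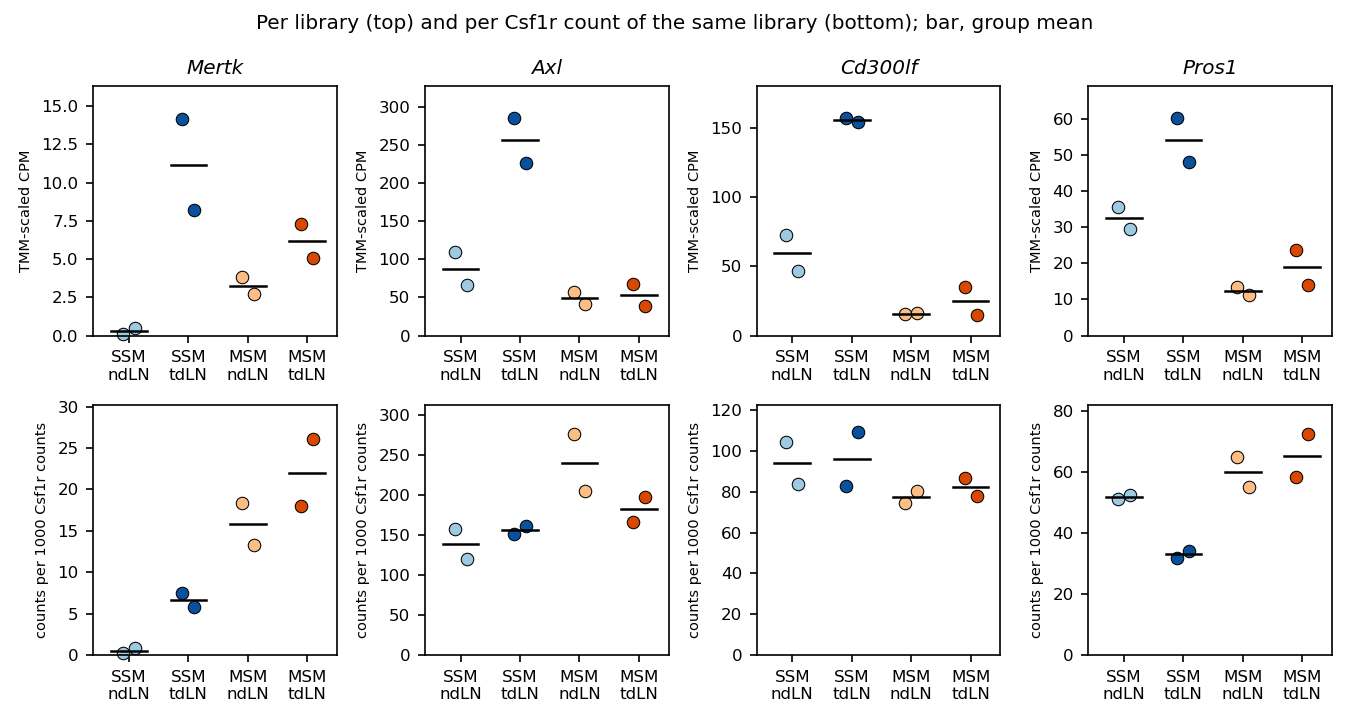
Mertk, Axl, Cd300lf and Pros1 in TMM-scaled CPM (top row) and in counts per 1000 Csf1r counts of the same library (bottom row), linear axes starting at 0, with points for libraries and bars for means of 2. In SSMs Mertk was higher in tdLN on both scales (from 0.186 and 0.832 to 7.48 and 5.83 per 1000 Csf1r counts), while Cd300lf lay between 74.4 and 110 per 1000 Csf1r counts in all libraries.

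The other genes of the pathway were grouped in 5 lists by role. Values in parentheses are log2 fold changes of genes called by the same rule. Of all tested genes 12.1% were called for the subsets in ndLN (6.01% higher and 6.06% lower) and 8.69% in tdLN (5.16% and 3.53%). For the nodes, 3.03% were called in SSMs (1.98% higher and 1.05% lower) and 0.0237% in MSMs. These shares are over all 21085 tested genes, of which only 9996 were over the count cut-off and could be called. Of 12 other receptors 11 were tested and 7 could be called. In ndLN 3 were higher in SSMs and 2 lower, with Stab2, a scavenger receptor that also takes up hyaluronan, at a log2 fold change of 5.41 (0.74 and 0.02 CPM in MSMs, 14.2 and 16.5 CPM in SSMs), and Cd36, a receptor for oxidised lipids and thrombospondin, at -4.39 (545 and 468 CPM in MSMs, 23.7 and 24.5 CPM in SSMs). The CD300 relatives Cd300lb (2.83) and Cd300a (1.29) were higher there, as was Cd300lf. In tdLN 4 were higher in SSMs and 1 lower, named Scarf1 (3.38), Lrp1 (2.40), Cd300lb (2.39) and, as the lower one, Cd36 (-3.87). From ndLN to tdLN of SSMs 3 rose and 1 fell, the HDL receptor Scarb1 by 1.62, the large endocytic receptor Lrp1 by 1.33 and Cd300a by 1.17 on the log2 scale, while Cd36 fell by 1.25. Csf1r itself rose by more than Lrp1 and Cd300a, and by less than Scarb1, in the same contrast. The median log2 fold change of the 11 tested receptors was 1.29 for the subsets in ndLN, 2.39 in tdLN and 0.67 for the nodes in SSMs.

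All 8 other bridges and integrins were over the count cut-off. The 3 chains of C1q were the ones called higher in tdLN than in ndLN of SSMs, against 1.98% of all genes. They are parts of 1 complex, so the 3 calls need not be independent. C1q opsonises dying cells for uptake. C1qa went from 21.2 and 12.9 CPM to 205 and 161 CPM (log2 fold change 3.42), C1qb from 41.6 and 26.1 CPM to 471 and 363 CPM (3.62) and C1qc reached 204 and 161 CPM (3.05). In MSMs the 3 chains were higher in tdLN too, by 1.89, 1.65 and 1.40, though not called (edgeR adjusted p of 0.152 to 0.171). In SSMs they were higher against Csf1r as well, C1qa going from 30.6 and 23.0 to 109 and 114 per 1000 Csf1r counts. On this scale C1qa was at 49.0 and 150 in MSMs of ndLN and at 196 and 371 in MSMs of tdLN. Of the genes in the 5 lists only the C1q chains were divided by Csf1r counts. The integrin chains that serve Mfge8 were higher in SSMs than in MSMs of ndLN, with Itgb3 at 4.53, Itgb5 at 2.99 and Itgav at 1.54. In tdLN Itgav was not called (0.68, SE 0.223, edgeR adjusted p = 0.0853). From ndLN to tdLN of SSMs none of these integrin chains was called by edgeR. Itgav went from 99.2 and 133 CPM to 59.3 and 54.0 CPM, and Itgb3 from 95.1 and 111 CPM to 46.5 and 44.1 CPM. Itgb5 went the other way, from 43.2 and 47.7 CPM to 90.2 and 62.4 CPM. In that contrast 7 of the 8 listed genes were at an unadjusted p under 0.05, and DESeq2 called 6. Thbs1, thrombospondin 1, was at 2445 and 1713 CPM in SSMs of ndLN and 4961 and 3250 CPM in SSMs of tdLN against 165 to 312 CPM in MSMs (log2 fold change 3.46 in ndLN and 4.03 in tdLN). In ndLN 4 of the 8 were higher in SSMs and 1 lower (Calr, an eat-me signal on dying cells, -0.67), and in tdLN 3 were higher (Thbs1, Itgb5 at 3.11 and Itgb3 at 2.53). Over all genes 12.1% were called in ndLN and 8.69% in tdLN.

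Of 10 genes of the engulfment machinery 3 were higher in SSMs in both nodes, the cholesterol exporter Abca1 (2.74 in ndLN, 2.49 in tdLN), its relative Abca7 (0.96 and 0.78) and the GTPase Rhog, which works upstream of Elmo1 (0.84 and 0.66). Over all genes 12.1% were called in ndLN and 8.69% in tdLN. Csf1r differed more between the subsets than Abca7 and Rhog in both nodes, at 559 to 1887 CPM in SSMs and 194 to 405 CPM in MSMs. Between nodes of SSMs edgeR called 0 of the 10, where it called 3.03% of all genes. Of the 10, 3 were at an unadjusted p under 0.05 and 3 were called by DESeq2. Dock1 narrowly missed the edgeR call (log2 fold change 1.93, SE 0.308, edgeR adjusted p = 0.0102). It went from 8.31 and 6.99 CPM to 39.2 and 20.7 CPM. Elmo2 was not called either (0.67, SE 0.136, edgeR adjusted p = 0.0240). In this contrast 7 of the 10 had a positive log2 fold change. Of 8 genes that control the TAM receptors and their ligands, Nr1h3, the liver X receptor that drives Mertk transcription, was the 1 called higher in SSMs of tdLN (1.59) and the 1 that rose from ndLN to tdLN of SSMs, from 12.2 and 14.6 CPM to 82.9 and 60.4 CPM (2.40). Between the subsets of ndLN edgeR called 0 of these 8, with 4 at an unadjusted p under 0.05 and 1 called by DESeq2. Of the don't-eat-me pair Cd47 and Sirpa, Sirpa rose in SSMs from 368 and 293 CPM to 1297 and 1052 CPM (1.83) and was higher in SSMs than in MSMs of tdLN (1.53). Between nodes of MSMs edgeR called 0 of the 39 tested genes of the 5 lists, with 12 at an unadjusted p under 0.05 and 5 called by DESeq2. There edgeR called only 0.0237% of all genes.

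**Figure D4:**
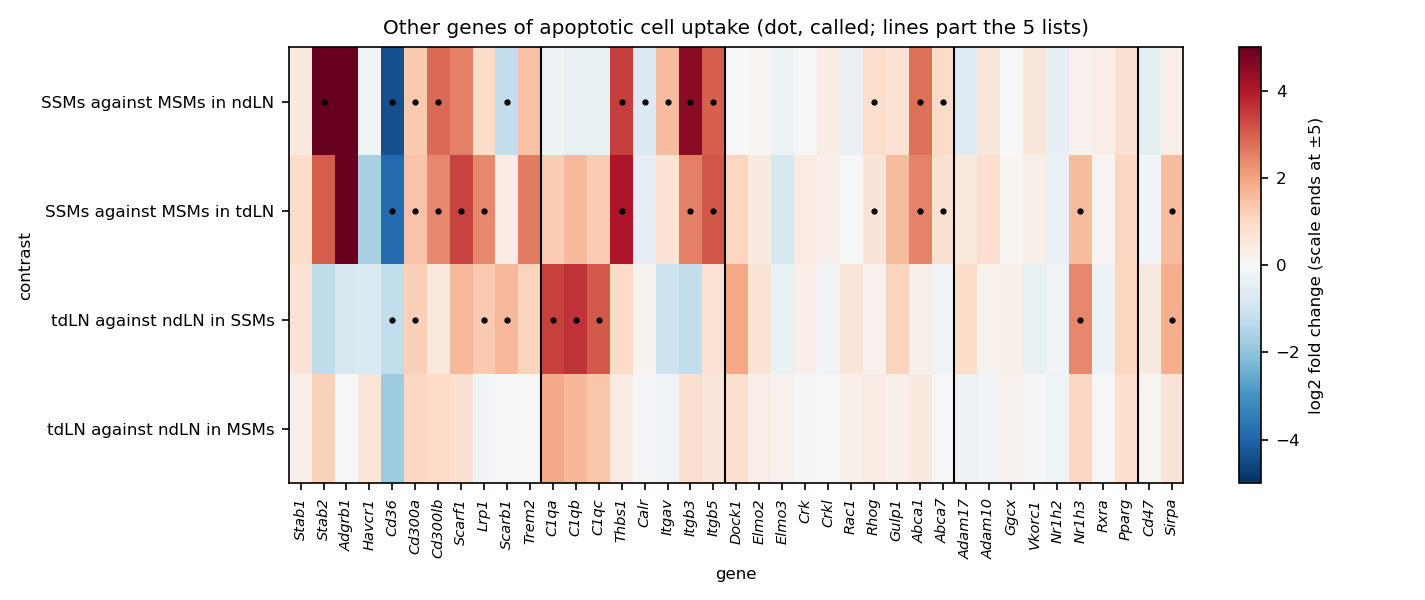
Log2 fold change (colour, red higher in the first-named group, scale ending at ±5) of the other pathway genes (columns, in 5 lists parted by lines: receptors, bridges and integrins, engulfment, control of TAM receptors, don't-eat-me signal) in 4 contrasts (rows). Dots mark called genes. The C1q chains rose in SSMs from ndLN to tdLN (3.05 to 3.62). The row for MSMs holds no dot, though the C1q chains were higher in tdLN there too (1.40 to 1.89).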

How the data were processed

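Members and gene lists were chosen with earlier results of these data known. Per the labels and the study's methods, RNA of about 10000 sorted cells was amplified with SMART-Seq v4 and sequenced on 2 lanes, and the authors trimmed reads (Trimmomatic 0.36) and aligned them (STAR 2.5.3a) to GRCm38. The annotation and strand setting are not given in the sources used here. The authors deposited raw counts per gene and lane (55421 genes and 2 added sequences with 6 counts, left out). Lanes of a library agreed within sampling noise (chi-square per degree of freedom 0.955 to 1.02, against 29.3 to 53.1 between libraries of a group) and were summed, giving 8 libraries. The labels number 2 pools, where the study counts 4, and the 2 lanes of a library count here as 1 sample. Every pool gave all 4 groups, and the study's models carry it as a block. Deviations of same-numbered libraries correlated at -0.186 to 0.150 across 10000 genes.

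Genes with at least 10 counts, detected in at least 2 of 16 lane columns, were tested (21085) with edgeR 4.0.16 (R 4.3.3), TMM scaling, a quasi-likelihood fit on group and pool, and Benjamini-Hochberg adjustment. A call needs an adjusted p under 0.01 and a mean over 100 normalized counts per lane (9996 genes). On simulated data for SSMs against MSMs in ndLN (21085 genes), 200 genes over the count cut-off were changed 4-fold. Of these 91% were called, with 2 false calls. The simulation held no pool effect and set the spread of a gene by its mean count alone, so it does not measure recovery in the real data. RPKM used exon lengths of GENCODE M21 (55240 IDs matched), and promoters came from RefSeq (GRCm38.p6). 1 gene of the fixed lists was left out of every list and count. All 9 members are named, and of each other list up to 4 called genes per contrast with the largest change. Some genes that were not called are given as well. Alternatives were no block, DESeq2 1.42.0, other scaling, no filter, other cut-offs, lanes as samples, fewer groups, the legacy fit and each library left out. There were 2 pools of 2 mice a group, and pool number was a block. The p-values therefore rest on the spread between libraries that is left after group and pool, estimated over all groups together.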

Additional observations from a re-analysis of the deposited data

Results flagged for a closer look

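The node effect differed between SSMs and MSMs at an adjusted p under 0.05 for 2 of the 9 genes, by the interaction term of the edgeR fit, where 1.02% of all genes did. With any 1 library left out neither passed (adjusted p 0.0727 to 0.290 for Mertk and 0.0632 to 0.228 for Axl). For Mertk the difference was 4.33 on the log2 scale (edgeR adjusted p = 0.0368), with 7 and 23 counts in SSMs of ndLN setting its size. For Axl it was 1.51 (edgeR adjusted p = 0.0355). Per 1000 Csf1r counts Axl went from 276 and 205 to 166 and 198 in MSMs, and from 158 and 119 to 151 and 161 in SSMs, while Mertk went from 18.3 and 13.3 to 17.9 and 26.1 in MSMs and from 0.186 and 0.832 to 7.48 and 5.83 in SSMs.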

How the results depend on the processing

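Counts are members called of 9. No called log2 fold change of a member changed sign under any alternative of the fits. Between nodes of SSMs 2 were called with the pool as a block and 1 with no replicate block, which changed the count in no other contrast, though over both subsets Axl left the calls and Timd4 entered them. The cause of this and of the changes that follow was not tested. With Holm adjustment 0 were called in every contrast. Fitted on only the groups compared, 1 was called for the subsets in ndLN and 0 for the nodes in SSMs. With each lane as a sample, which treats repeat lanes as replicates, the counts were 5 for the subsets in tdLN, 4 for the nodes in SSMs, 3 in MSMs, 4 for the interaction and 5 for the nodes over both subsets. An adjusted p cut-off of 0.05 gave 4 for the nodes in SSMs, 1 in MSMs, 2 for the interaction and 5 for the nodes over both subsets. DESeq2 gave 5 for the subsets in ndLN, 3 for the nodes in SSMs, 1 for the nodes in MSMs, 3 for the interaction and 5 for the nodes over both subsets. Axl entered the calls for the subsets in ndLN with DESeq2, with its scaling alone, at 0.05 and with each lane as a sample. Mertk entered those for the subsets over both nodes at 0.05 and with each lane as a sample. With 1 library left out, the lone library of its group being assumed to vary like the others, the counts ranged from 0 to 3 for the subsets in ndLN, 1 to 3 in tdLN, 0 to 2 for the nodes in SSMs, 0 to 0 over both subsets, in MSMs and for the interaction, and 4 to 4 for the subsets over both nodes. Over all genes, the 639 calls for the nodes in SSMs became 1932 with DESeq2, 1832 at 0.05, 7 with Holm, 0 on only the groups compared and 2 to 345 with 1 library left out. The counts over all genes, with their range over the alternatives, were 2545 (207 to 6253) for the subsets in ndLN, 1833 (108 to 5415) in tdLN and 3384 (405 to 6730) over both nodes, 5 (0 to 2413) for the nodes in MSMs and 416 (3 to 4655) over both subsets, and 8 (0 to 2670) for the interaction. The ratios to Csf1r counts moved from those in CPM for all 9 genes. Depth limits Mertk in SSMs of ndLN and Tyro3 in MSMs, where single libraries held 0 to 24 counts.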
